A study of Mus musculus with 20 samples.

Results

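The genes described here are heat shock chaperones and their cochaperones: Hspa1a, Hspa1b, Hsph1, Bag3, Hspa8, Hsp90aa1, Hsp90ab1, Hspb1, Cryab and Dnajb1. They were chosen by name, and every probe set that the platform annotation assigns to one of these 10 symbols alone was taken, whatever its values. A probe set is a group of short probes on the array that measures 1 transcript. This gave 12 of the 12422 probe sets on the array that are not controls, for 9 genes out of 8251. Hsp90ab1, the constitutive cytosolic HSP90, had no probe set assigned to it alone and was skipped. Bag3, Hsp90aa1 and Cryab have 2 probe sets each, of which the one with the higher mean in adipose tissue is called the leading one and the other the second.

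Chaperones of this family bind proteins that are unfolded or still folding and keep them from clumping. Those of the HSP70 class work in cycles of ATP use, in which J-domain proteins deliver the client and HSP110 and BAG proteins release the nucleotide, and HSP90 acts later on signalling proteins, while small heat shock proteins hold clients without ATP. Heat, low oxygen with reoxygenation and other protein-damaging stress activate heat shock factor 1, which binds inverted repeats of the letters GAA in promoters and drives the inducible members. Some members are also high without stress, among them Cryab in heart and slow muscle and Hsp90aa1 in brain.

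Intermittent hypoxia, as used here, imitates the repeated oxygen drops of sleep apnea. The 8 adipose arrays held subcutaneous fat from mice aged 12 weeks, for which the labels name the strains C57BL-6J and C57BL-6J-Lep (or LepOb, with the obesity mutation of the leptin gene) without saying which array held which. They form 4 groups of 2 arrays: Con Hyp, Con NonHyp, Glucose Hyp and Glucose NonHyp. The Hyp mice had air in which oxygen fell from 20.9% to 5% and rose again, each within 30 seconds, 16 hours daily on 5 days, and the NonHyp mice were, as far as the labels say, kept in intermittent room air. The labels do not say what Con and Glucose mean, nor whether an array held 1 animal or a pool, and the 2 arrays of a group are called numbers 1 and 2. The other 12 arrays, the tissue panel, held brain, heart, lung and skeletal muscle of C57BL-6J mice aged 20 weeks, with 1 array per tissue without treatment (Con), after sleep fragmentation (Frag) and after hypoxia (Hypoxia), whose regime is not stated for the panel. No deletion, transgene or treatment is stated to be shared by all groups, and the strain of each adipose array is not given.

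The median intensity per array was between 265 and 411 on 19 arrays and 1475 on the Brain Hypoxia array. Control probe sets at both ends of the Actb transcript gave a ratio of the 3' signal over the 5' signal of 0.0288 to 0.0635 on the lung arrays and 0.0343 on the Brain Hypoxia array, against 0.662 to 1.71 elsewhere. The same ratio for Gapdh was 0.00899 to 0.264 on the muscle arrays and 0.136 on the Heart Hypoxia array, against 0.443 to 1.603 elsewhere. Snap25 was 13247 to 15006 on the brain arrays and at most 245 on the others of the panel. The lung arrays had Sftpb, a surfactant gene, at 4246 to 6985, and also Myh6, a heart myosin, at 2031 to 2658, against 4558 to 15754 on the heart arrays. Of the 4 lung epithelium markers with a probe set, Sftpc was under the offset of 97.7 on the Lung Hypoxia array. Of the 8 cardiac markers, Myl2 was under it on every lung array and Myl3 on the Lung Con array. The cardiac markers summed to 15088 to 23691 on the lung arrays and to 55289 to 85758 on the heart arrays. Lung epithelium markers summed to 13897 on the Brain Con array, mostly through Scgb1a1 at 12476. They summed to 977 and 1070 on the other brain arrays and to 4941 to 16399 on the lung arrays. Skeletal muscle markers summed to 29408 on the Lung Hypoxia array, against 9289.3 and 9684.5 on the other lung arrays. On the Brain Con array they summed to 21728, against 6794 and 14490 on the other brain arrays. Cardiac markers summed to 21757 on the Muscle Con array, against 8720 and 9538 on the other muscle arrays. Of the white adipocyte markers, 7 of 7 with a probe set were above the floor on every adipose array, and the skeletal muscle markers summed to between 21474 (Glucose NonHyp number 1) and 325060 (Con NonHyp number 2). The 7 brown adipocyte markers summed to 92229 and 69290 on the Con Hyp and Con NonHyp arrays numbered 1 and to between 1541 and 12148 on the other 6 adipose arrays. In bulk tissue, fewer cells of a type and less RNA per cell cannot be told apart.

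Hspa1a, Hspa1b and Hsph1 were the members furthest above the next highest array on 1 adipose array described further on, and their promoters are shown for that reason, from 250 bases before the start of transcription to 50 bases after it, from RefSeq on GRCm38.p6. Capitals mark inverted GAA repeats, searched as GAANNTTC and TTCNNGAA, which read the same on both strands. Hspa1a lies at chr17:34972107-34972406, Hspa1b at chr17:34959189-34959488 and Hsph1, of which this is the downstream of 2 overlapping windows, at chr5:149636266-149636565, each on the minus strand.
Hspa1a: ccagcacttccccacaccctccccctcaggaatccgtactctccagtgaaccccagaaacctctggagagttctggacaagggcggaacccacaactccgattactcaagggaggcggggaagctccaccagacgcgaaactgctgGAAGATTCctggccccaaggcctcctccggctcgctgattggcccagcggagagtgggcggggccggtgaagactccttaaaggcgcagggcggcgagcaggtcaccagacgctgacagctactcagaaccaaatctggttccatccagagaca
Hspa1b: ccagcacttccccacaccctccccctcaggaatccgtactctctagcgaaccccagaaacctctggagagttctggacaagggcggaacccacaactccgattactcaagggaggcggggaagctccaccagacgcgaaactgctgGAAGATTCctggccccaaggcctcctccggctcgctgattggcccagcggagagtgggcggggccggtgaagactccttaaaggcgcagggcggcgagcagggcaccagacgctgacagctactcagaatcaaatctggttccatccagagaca
Hsph1: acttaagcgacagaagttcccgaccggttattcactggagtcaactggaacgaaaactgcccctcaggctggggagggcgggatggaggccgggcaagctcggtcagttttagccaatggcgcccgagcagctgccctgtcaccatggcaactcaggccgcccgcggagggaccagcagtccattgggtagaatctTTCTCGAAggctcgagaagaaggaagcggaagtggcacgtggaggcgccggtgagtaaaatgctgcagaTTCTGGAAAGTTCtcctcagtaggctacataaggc
The Hspa1a and Hspa1b windows were identical at 296 of 300 positions (98.7%), and each held 1 match, GAAGATTC, at bases 147 to 154. These genes are near-identical neighbouring copies, so probes of one can bind the other's transcript, and how far each of their probe sets measures its own gene cannot be told apart here. The Hsph1 window held 3 matches, with a pair overlapping into the triple TTCTGGAAAGTTC at bases 266 to 278. At least 1 match was present in 15.1% of all 32851 promoter windows of this length, and a triple of either orientation in 0.603%. The Bag3 window (chr7:128523333-128523632, plus strand) had 1 match and the Hspb1 window (chr5:135887669-135887968, plus strand) had 2, and the 2 Dnajb1 windows had none, which says only that these letters are not in those windows. RefSeq windows for Hspa8, Hsp90aa1 and Cryab were not used here.

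The level of most of these chaperones differed between the 4 tissues. Hsph1, Hspa8, Hsp90aa1 and Dnajb1 were highest in brain, while Bag3 and Cryab were highest in heart and, by their leading probe sets, next highest in skeletal muscle. Each tissue was compared with the mean of the other 3 by limma on log2(intensity + 97.7) after quantile normalization of the 12 arrays, with the 3 conditions in the place of replicates, so that p measures the spread between these arrays only. Of the 12 probe sets, 8 passed the filter, which keeps a probe set by its highest tissue mean, so that counts over these 8 are a description. Hspa1b, Hspb1 and the second probe sets of Hsp90aa1 and Cryab did not pass. At an adjusted p under 0.05, in brain 5 of the 8 were higher and 3 lower, where 49.5% of the 7453 probe sets tested were called, 23.5% higher and 26% lower. In heart 3 were higher and 4 lower (38.7% of all tested called, 19.2% higher and 19.5% lower). In lung 1 was higher and 4 lower (62% called, 28.1% higher and 33.8% lower), and in muscle 3 were higher and 2 lower (52.5% called, 24.9% higher and 27.6% lower). Arrays of the tissue did not overlap with the other 9 and were higher for 4 of the 8 in brain (13.7% of all tested) and 3 in heart (6.24%). They were lower without overlap for 2 in brain (9.2%), 1 in heart (2.54%), 2 in lung (14.5%) and 1 in muscle (6.68%). The median difference of the 8 was 0.81 in brain, -0.31 in heart, -0.30 in lung and 0.27 in muscle, against -0.08, -0.0017, -0.10 and -0.0025 over all tested.

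**Figure D1:**
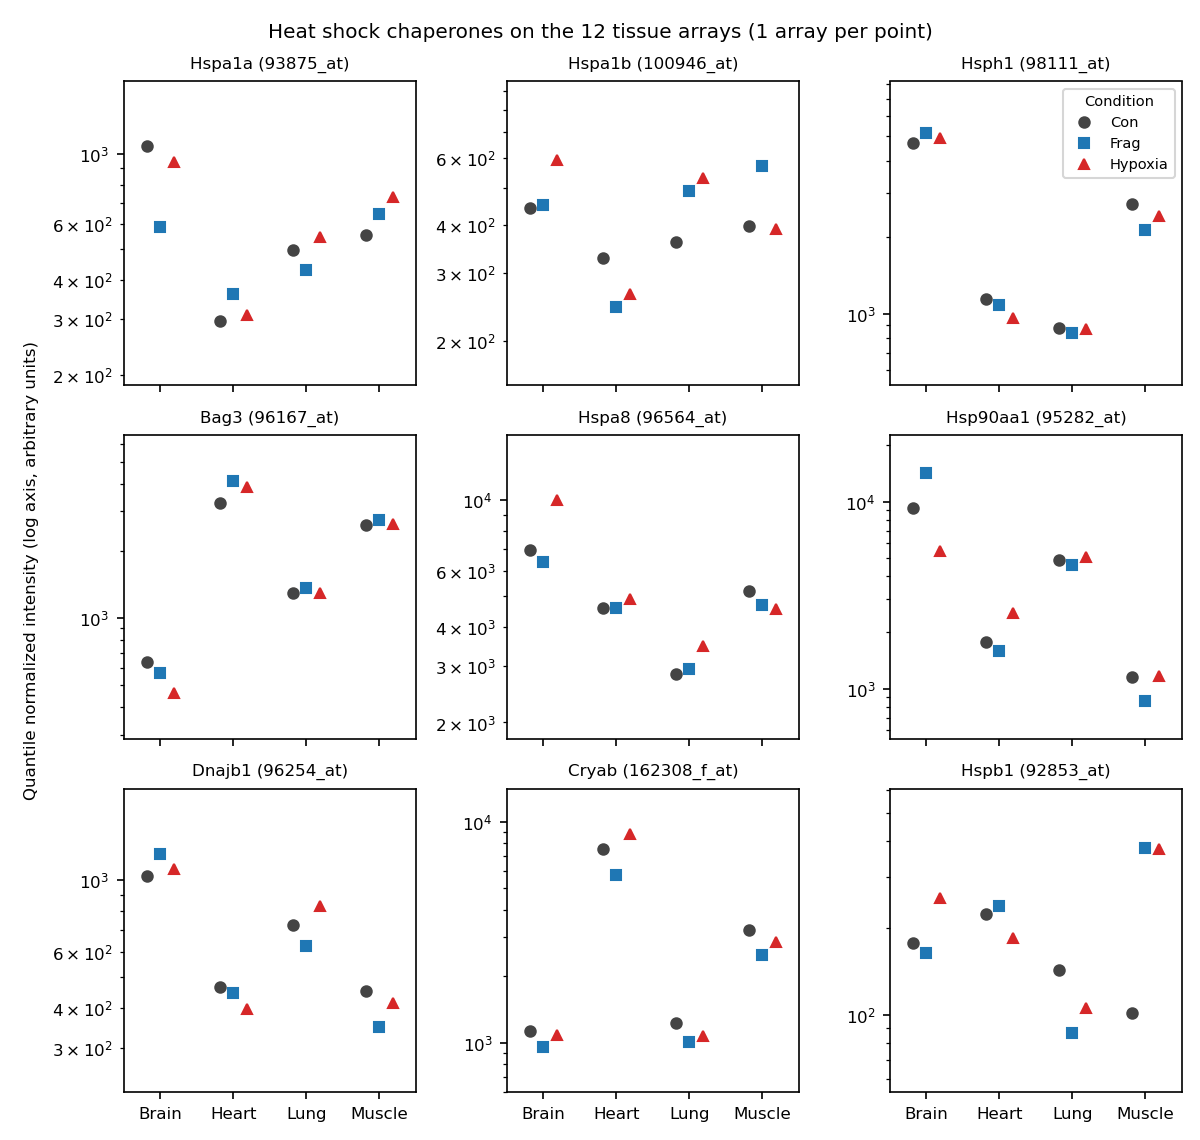
Quantile normalized intensity (log axis, arbitrary units) of the leading probe set of each of the 9 genes on the 12 panel arrays, 1 point per array, by tissue, with marker shape and colour for Con, Frag and Hypoxia. Bag3 and Cryab are highest on the 3 heart arrays, and Hsph1 and Hsp90aa1 on the 3 brain arrays.

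Among the HSP70 genes, Hspa1a, one of the stress-inducible copies, had normalized intensities of 1060, 586 and 946 in brain (Con, Frag and Hypoxia in that order, here and below), 296, 360 and 308 in heart, 497, 429 and 547 in lung, and 554, 647 and 731 in muscle. The heart arrays lay below all 9 others, and the brain and muscle arrays overlapped. Its level in brain was 0.73 ± 0.17 (log2 difference ± SE from limma) above the other tissues (adjusted p = 0.00401), and in heart it was lower by -0.83 ± 0.17 (adjusted p = 0.00319). In lung (-0.17 ± 0.17, 95% interval -0.54 to 0.20) and muscle (0.27 ± 0.17, interval -0.10 to 0.64) it was not called.

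Hspa1b, the other inducible copy, was measured at 444, 451 and 594 in brain, 328, 245 and 266 in heart, 361, 493 and 533 in lung, and 398, 572 and 391 in muscle. It was not tested, but here too the 3 heart arrays lay below the others, and brain, lung and muscle overlapped.

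Hspa8, the constitutive HSP70 of the cytosol, stood at 6976, 6391 and 10004 in brain, 4571, 4579 and 4889 in heart, 2842, 2952 and 3475 in lung, and 5186, 4666 and 4533 in muscle. Brain was above and lung below all other arrays, while heart and muscle overlapped. The log2 difference was 0.88 ± 0.14 in brain (limma, adjusted p = 0.000444) and -0.83 ± 0.14 in lung (adjusted p = 0.000593). For heart the difference was -0.05 ± 0.14 (interval -0.36 to 0.27) and for muscle -0.0034 ± 0.14 (interval -0.32 to 0.31), neither called.

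Hsph1, the HSP110 that exchanges nucleotide on HSP70, separated all 4 tissues. It gave 4714, 5128 and 4928 in brain, 2696, 2138 and 2421 in muscle, 1142, 1086 and 958 in heart, and 875, 837 and 873 in lung. No array of one tissue overlapped with another tissue, although heart and lung lay close. The log2 differences were 1.84 ± 0.12 in brain (limma, adjusted p = 8.96e-07), 0.50 ± 0.12 in muscle (adjusted p = 0.00676), -0.99 ± 0.12 in heart (adjusted p = 0.000165) and -1.35 ± 0.12 in lung (adjusted p = 9.11e-06).

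Bag3, the cochaperone that links HSP70 to small heat shock proteins and to selective autophagy, ran the other way. Its leading probe set read 3266, 4120 and 3860 in heart, 2612, 2747 and 2629 in muscle, 1290, 1370 and 1298 in lung, and 635, 567 and 461 in brain. The tissues did not overlap. The log2 difference was 1.49 ± 0.13 in heart (limma, adjusted p = 1.84e-05), 0.86 ± 0.13 in muscle (adjusted p = 0.00043), -0.42 ± 0.13 in lung (adjusted p = 0.0164) and -1.93 ± 0.13 in brain (adjusted p = 9.48e-07). Its lung call was lost on leaving out any of the 3 lung arrays (adjusted p = 0.056 to 0.0725).

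The second Bag3 probe set, whose suffix in the platform's naming marks probes that can match related sequences, shared the ends of that order. It read 1504, 1260 and 2660 in heart, 736, 773 and 1165 in muscle, 649, 972 and 1244 in lung, and 265, 154 and 138 in brain. Heart lay above and brain below all others, and muscle and lung overlapped. It was called in heart at 1.48 ± 0.23 (limma, adjusted p = 0.000613) and in brain at -2.13 ± 0.23 (adjusted p = 2.4e-05), and not in lung (0.38 ± 0.23) or muscle (0.27 ± 0.23).

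Dnajb1, the J-domain protein that hands clients to inducible HSP70, was at 1032, 1206 and 1081 in brain, 728, 623 and 832 in lung, 465, 446 and 397 in heart, and 453, 350 and 416 in muscle. Brain was highest and lung next without overlap, and heart and muscle overlapped. The log2 differences were 0.99 ± 0.13 in brain (limma, adjusted p = 0.000135), -0.57 ± 0.13 in heart (adjusted p = 0.00746) and -0.68 ± 0.13 in muscle (adjusted p = 0.00203), and in lung 0.26 ± 0.13, which was not called (interval -0.04 to 0.56).

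Hsp90aa1, the inducible HSP90 of the cytosol, spread widely among the brain arrays. It was at 9290, 14163 and 5415 in brain, 4896, 4571 and 5070 in lung, 1783, 1581 and 2527 in heart, and 1148, 863 and 1166 in muscle. Brain was highest and muscle lowest without overlap between neighbouring tissues, but the Brain Hypoxia array lay nearer to lung than to the other brain arrays. The log2 differences were 2.003 ± 0.26 in brain (limma, adjusted p = 0.000104), 0.84 ± 0.26 in lung (adjusted p = 0.0169), -0.88 ± 0.26 in heart (adjusted p = 0.0227) and -1.97 ± 0.26 in muscle (adjusted p = 0.000189). The heart call was lost without the Heart Con array (adjusted p = 0.11) or the Heart Frag array (0.144), and the lung call without the Lung Con array (0.0613) or the Lung Hypoxia array (0.081). Its second probe set gave 33.6 to 140 across the panel and was not tested.

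Cryab, the small heat shock protein alpha-B crystallin, which guards desmin and other filaments in muscle cells, had the largest difference of 1 tissue from the mean of the other 3 among the 8 probe sets tested, although Hsp90aa1 was further apart between its highest and lowest tissue. Its leading probe set was at 7555, 5754 and 8808 in heart, 3242, 2494 and 2858 in muscle, 1234, 1005 and 1073 in lung, and 1137, 957 and 1087 in brain. Heart and muscle were apart from each other and from the rest, and lung and brain overlapped. The log2 difference was 2.20 ± 0.13 in heart (limma, adjusted p = 1.89e-06), 0.44 ± 0.13 in muscle (adjusted p = 0.0146), -1.29 ± 0.13 in lung (adjusted p = 1.53e-05) and -1.36 ± 0.13 in brain (adjusted p = 9.57e-06). The muscle call was lost without the Muscle Con array (adjusted p = 0.0682). The second Cryab probe set read 42.5 to 143 in the panel, near or under the offset of 97.7, and was not tested. On the heart arrays it read 111, 140 and 61.0, so it does not show the heart level of the leading one. The leading Cryab probe set has the same suffix as the second Bag3 probe set, for probes that can match related sequences.

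Hspb1, the small heat shock protein HSP27, was low throughout. Its values were 178, 164 and 253 in brain, 223, 239 and 185 in heart, 143, 86.4 and 106 in lung, and 102, 380 and 376 in muscle. No tissue stood apart from the others, and the muscle arrays held both 102 and the highest value of the panel.

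**Figure D2:**
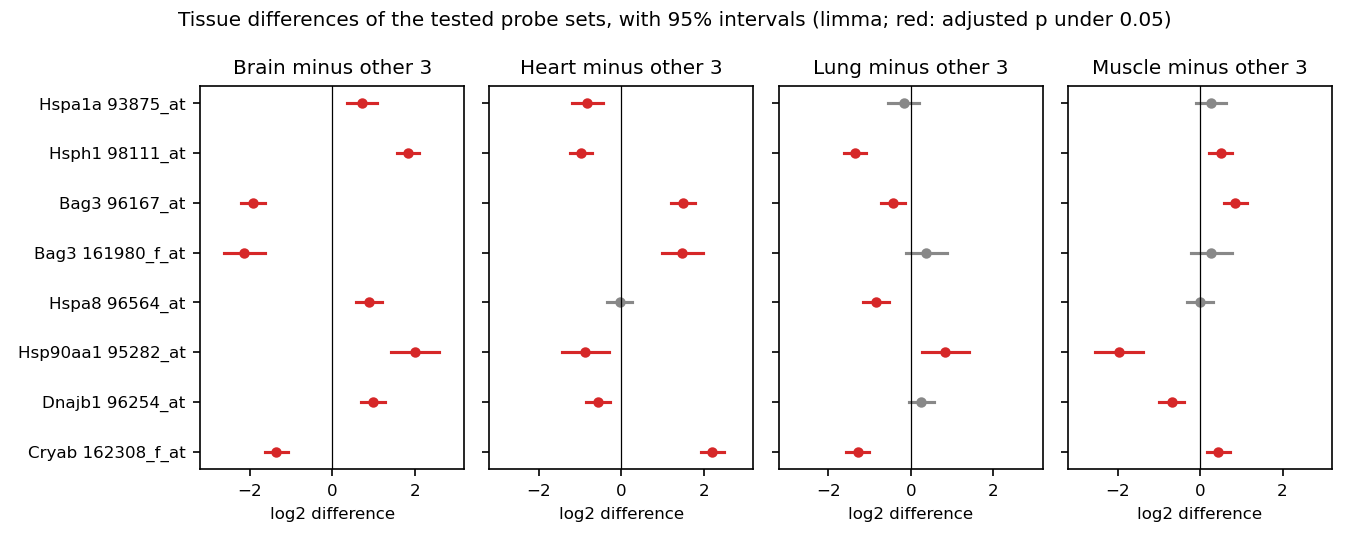
Log2 difference of each tissue from the mean of the other 3 for the 8 member probe sets tested, with 95% intervals from limma, red where the adjusted p was under 0.05 and grey elsewhere. Brain and heart lie on opposite sides of 0 for Hspa1a, Hsph1, Bag3, Hsp90aa1, Dnajb1 and Cryab.

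With each of the 12 panel arrays left out in turn, 8 of 8 remained called in brain, and the count was 6 to 7 in heart, 3 to 6 in lung and 4 to 5 in muscle. The part of the heart markers on the lung arrays in the lung levels of Cryab and Bag3, the members high in heart, was not tested. Nor was that of the heart markers on the Muscle Con array in the muscle levels of these members.

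Other genes of the chaperone system, from lists by compartment, also differed between tissues. Of the other small heat shock proteins, 3 probe sets of 2 genes were tested, for Hspb2, which neighbours Cryab on chromosome 9, and Hspb8, a partner of Bag3. All 3 were called higher in heart and in muscle (19.2% and 24.9% of all tested), as Cryab was. They were also called lower in brain and in lung (26% and 33.8% of all tested), again as Cryab was. However, 1 of the Hspb2 probe sets lost its lung call under 10 of 16 alternatives. Hspb8 differed by 1.36 ± 0.12 in heart and 1.64 ± 0.12 in muscle (limma, adjusted p = 2.02e-05 and 4.77e-06). Hspb2 by the other probe set differed by 1.61 ± 0.15 in heart and -2.45 ± 0.15 in brain (adjusted p = 2.26e-05 and 3.91e-07). Of 6 mitochondrial probe sets, 6 were called higher in heart (19.2% of all tested), with Hspe1, the cochaperonin of HSP60, at 1.23 ± 0.13 (adjusted p = 6.15e-05), and 5 were called lower in lung (33.8% of all tested). Of 16 probe sets of endoplasmic reticulum chaperones, 9 were called higher and 2 lower in lung (28.1% and 33.8% of all tested), led by Serpinh1, the collagen chaperone, at 1.86 ± 0.21 (adjusted p = 3.29e-05), and 2 were called higher and 7 lower in muscle (24.9% and 27.6%).

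Of 26 probe sets of other cytosolic chaperones and cochaperones, 9 were called higher and 6 lower in brain (23.5% and 26% of all tested), with Dnaja1, another J-domain protein, at 1.95 ± 0.13 (limma, adjusted p = 7.48e-07) and Hspa4, a relative of Hsph1, at 1.15 ± 0.14 by 1 of its probe sets (adjusted p = 5.04e-05). In heart 11 were higher and 3 lower (19.2% and 19.5%), in lung none was higher and 13 were lower (28.1% and 33.8%), and in muscle 7 were higher and 6 lower (24.9% and 27.6%). Of 10 probe sets of the chaperonin CCT, which folds actin and tubulin, 2 were called higher in brain, 2 lower in lung, and 1 higher and 3 lower in muscle, below those shares except for lower calls in muscle. Immediate early genes, which respond to many stimuli within minutes, were called higher in lung for 8 of 13 probe sets, with Jun at 2.40 ± 0.38 (adjusted p = 0.000395), and lower there for 1 (28.1% and 33.8% of all tested). They were called lower in brain for 8 (26% of all tested), in muscle higher for 2 and lower for 7 (24.9% and 27.6%), and in heart higher for 2 and lower for 1 (19.2% and 19.5%). No probe set of the heat shock factors passed the filter.

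Across the 12 panel arrays the genes outside the family whose log2 levels followed a member most closely are given as a description, since the arrays share tissue and the correlation is mostly one of tissue means. For Cryab they were Lum (Pearson r = 0.993), Hadhb (0.982) and Car14 (0.981), for Hspa8 they were Gnao1 (0.976), Clcn4 (0.974) and Psmc5 (0.962), and for Hsp90aa1 they were Stmn1 (0.960), Nckap1 (0.959) and BC031181 (0.958). For Hspb1, whose levels were low, they were Plac1 (0.909), Lhx1 (0.907) and Olfr49 (0.902). Between members, Bag3 and Cryab had r = 0.872, Hsp90aa1 and Dnajb1 had 0.932, and Bag3 and Dnajb1 had -0.952.

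Sleep fragmentation and hypoxia left no member called across the 4 tissues. Frag and Hypoxia share their Con arrays, and in each comparison tissue was a term of the limma fit. None of the 8 probe sets tested was called for Frag minus Con, Hypoxia minus Con or Hypoxia minus Frag, where the share called among all tested was 0% in each. At an unadjusted p under 0.05, the fit counted 1 of 8 for Frag minus Con (4.49% of all tested), 0 of 8 for Hypoxia minus Con (5.02%) and 0 of 8 for Hypoxia minus Frag (10.1%). The 1 was Cryab, with a Frag minus Con difference of -0.31 ± 0.13 (limma, adjusted p = 0.967). It was lower in each tissue: by -0.23 in brain, -0.39 in heart, -0.27 in lung and -0.37 in muscle. The Muscle Con array had the highest cardiac marker sum of the muscle arrays, and the part of those markers was not tested. For Hypoxia minus Con the intervals bound a shared change of Hspa1a to between -0.30 and 0.48, of Hsph1 to between -0.37 and 0.21, of Bag3 by its leading probe set to between -0.34 and 0.27, and of Hsp90aa1 to between -0.67 and 0.56. The second Bag3 probe set differed by 0.40 ± 0.24 (interval -0.13 to 0.93, adjusted p = 0.906), higher in heart, lung and muscle and lower in brain. A shared increase by 2-fold lies outside these intervals.

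Within a tissue there is 1 array per condition and so no test, and members 2-fold or more apart are named. These folds are of values with the offset of 97.7 added. They are therefore smaller than the ratios of the intensities, most of all for low probe sets. Hsp90aa1 in brain was 2.59-fold lower under Hypoxia than under Frag, where 4.35% of all tested probe sets were 2-fold or more lower. The Brain Hypoxia array is the one with the high deposited intensity and the low Actb ratio, and the part of either was not tested. Bag3 by its second probe set in heart was 2.03-fold higher under Hypoxia than under Frag (4.27% higher among all tested), while its leading probe set was 1.07-fold lower there. Hspb1 in muscle was 2.40-fold higher under Frag and 2.38-fold higher under Hypoxia than under Con (3.94% and 2.63% among all tested). Both of these share the Muscle Con array, at 102, close to the offset of 97.7.

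**Figure D3:**
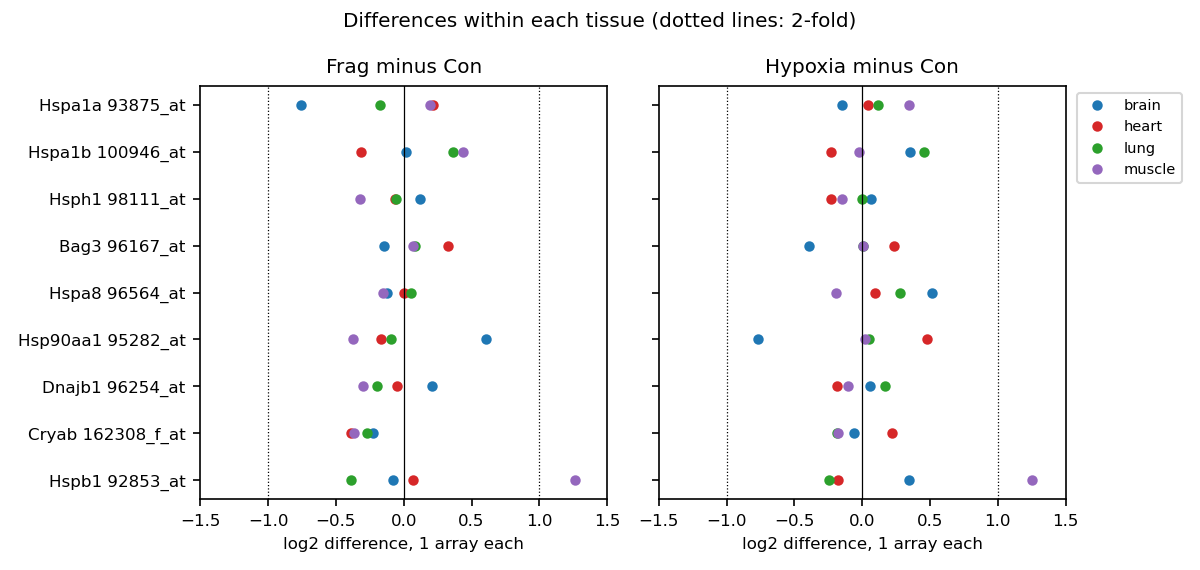
Log2 difference of Frag (left) and Hypoxia (right) from Con within each tissue for the leading probe set of each gene, 1 array against 1 array per point, with dotted lines at 2-fold. Hspb1 in muscle lies past the 2-fold line in both panels, at 1.26 and 1.25, and Cryab lies below 0 in all 4 tissues under Frag.

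In adipose tissue the Con NonHyp array numbered 1 carried the highest level of Hspa1a, Hspa1b and Hsph1 of the 8 arrays. They were 3.65-fold, 3.77-fold and 1.41-fold above the next highest array. Hsp90aa1 was also highest there, but by 1.02-fold only. Thus 4 of the 9 member probe sets tested were highest on that array, as were 554 of all 7453 tested. Bag3 was lower on both Con Hyp arrays than on both Con NonHyp arrays. All 4 Glucose arrays had more Cryab signal than any of the 4 Con arrays. None of the members tested was called in any of the 5 adipose comparisons. Here the deposited scaling was kept, values under 97.7 were set to that floor before log2, and limma was fitted to the 4 group means. Of the 12 probe sets, 9 passed the filter on the mean. Hspb1 and the second probe set of Hsp90aa1 were under the floor on 8 of 8 arrays, and the second probe set of Cryab on 7 of 8, with 159 on Glucose Hyp number 2.

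**Figure D4:**
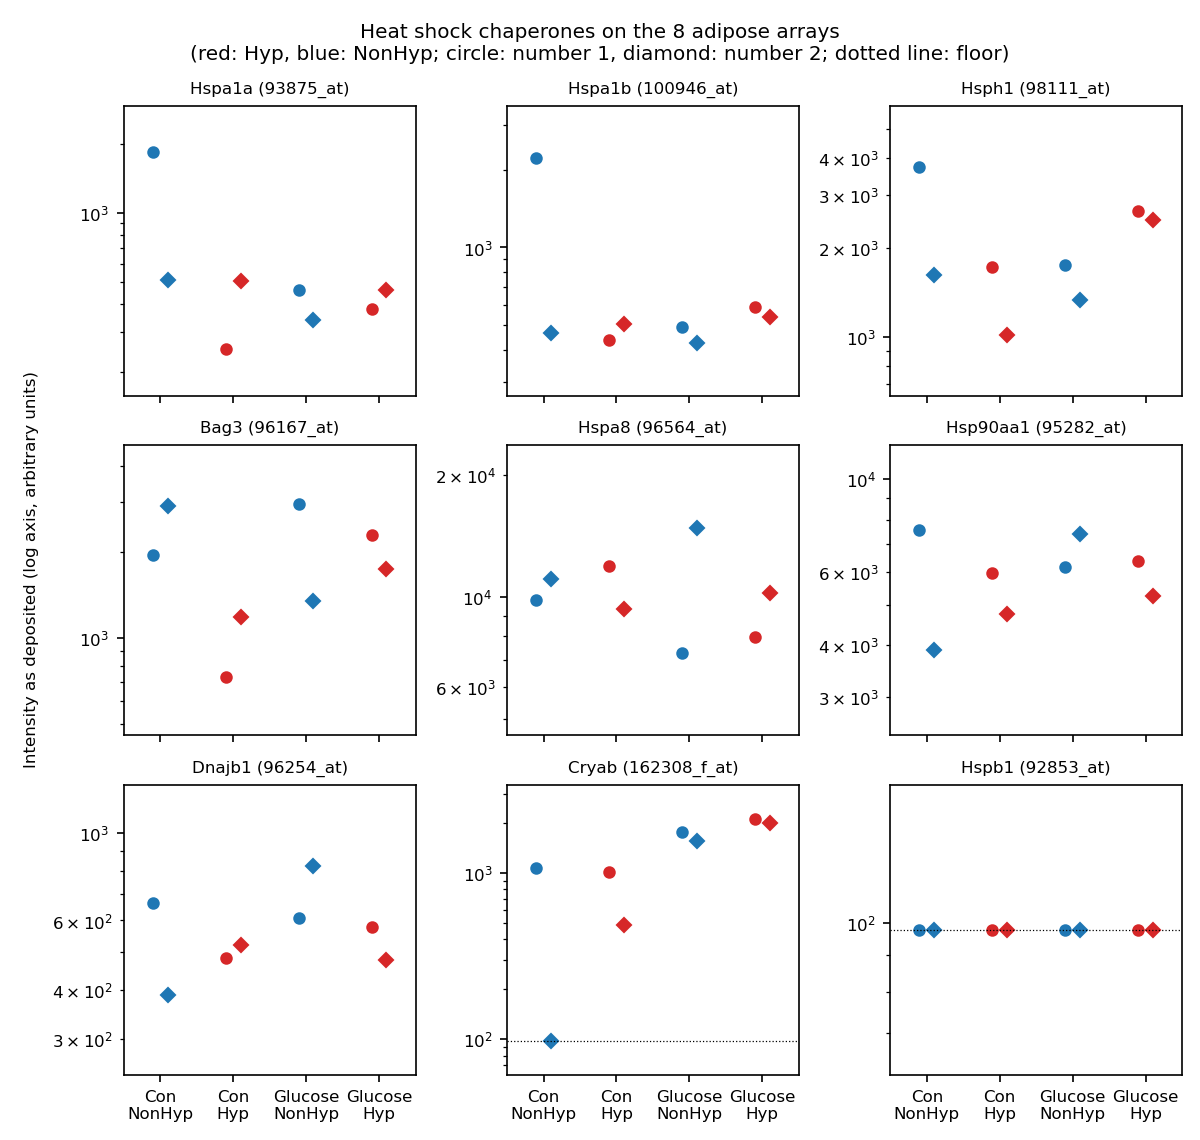
Deposited intensity (log axis, arbitrary units, values under the floor drawn at it) of the leading probe set of each of the 9 genes on the 8 adipose arrays, circles for number 1 and diamonds for number 2, red for Hyp and blue for NonHyp. Hspa1a and Hspa1b are far higher on Con NonHyp number 1 (1848 and 2220) than on any other array.

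Hspa1a had deposited intensities of 252 and 502 on the Con Hyp arrays (numbers 1 and 2, here and below), 1848 and 507 on the Con NonHyp arrays, 380 and 459 on the Glucose Hyp arrays, and 457 and 339 on the Glucose NonHyp arrays. Hspa1b had 438 and 502, 2220 and 466, 589 and 539, and 490 and 425 in the same order. One array was 3.65-fold (Hspa1a) and 3.77-fold (Hspa1b) above the next highest. The other 7 ran from 252 to 507 for Hspa1a and from 425 to 589 for Hspa1b. Of the 7453 probe sets tested, 15 (0.201%) were 2-fold or more above the next highest array on Con NonHyp number 1. That array was looked at because of the member levels there. The other 7 arrays had 9 to 61 such probe sets each (0.121% to 0.818%). Of those on Con NonHyp number 1 with a single gene symbol, Hspa1b and Hspa1a ranked after Elovl6, a fatty acid elongase, at 8.95-fold.

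Hsph1, whose promoter window holds the triple shown above, gave 1724 and 1020 on the Con Hyp arrays, 3735 and 1614 on the Con NonHyp arrays, 2650 and 2481 on the Glucose Hyp arrays, and 1753 and 1338 on the Glucose NonHyp arrays. The same array was highest, by 1.41-fold. The median deviation of the 9 member probe sets from their mean over the 8 arrays was 0.38 on that array on the log2 scale, against 0.28 for other cytosolic chaperones, 0.57 for mitochondrial chaperones, 0.16 for those of the endoplasmic reticulum, 0.17 for CCT subunits and -0.03 for immediate early genes. Brown adipocyte markers deviated by 3.13 there and by 3.45 on Con Hyp number 1, where the median deviation of the 9 member probe sets was -0.20. Cardiac muscle markers deviated by 1.53 on Con NonHyp number 1, with 3 of 5 probe sets highest there. The part of either list in the levels was not tested.

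Within Con, 7 of the 9 probe sets tested had a lower mean under hypoxia and 2 a higher one, and none passed the test. The log2 difference of Hyp from NonHyp was -1.44 ± 0.63 for Hspa1a, -1.12 ± 0.66 for Hspa1b, -0.89 ± 0.48 for Hsph1, and -1.35 ± 0.49 and -0.95 ± 0.38 for the 2 Bag3 probe sets. For Cryab it was 1.13 ± 0.98, with one Con NonHyp array at the floor. None was called (limma, adjusted p = 1 for each), and none of the 7453 probe sets was (0%). At an unadjusted p under 0.05 the fit counted 2 of the 9, both of Bag3, against 2.92% of all tested. Arrays did not overlap and were lower under hypoxia for Hspa1a and both Bag3 probe sets, as for 10.5% of all tested. For Hspa1a the margin was slight, with Con Hyp number 2 at 502 and Con NonHyp number 2 at 507. The median difference of the 9 was -0.89 against 0.06 over all tested.

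These differences rested in part on Con NonHyp number 1. Without it the difference was -0.51 for Hspa1a, 0.0078 for Hspa1b and -0.28 for Hsph1, and the median of the 9 was -0.07. For Bag3 it was -1.64 by the leading and -0.77 by the second probe set. Without Con NonHyp number 2 it was -2.38 for Hspa1a, -2.24 for Hspa1b and -1.49 for Hsph1.

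Bag3 was the member whose within-Con difference was about as large without that array. By the leading probe set it read 731 and 1188 on the Con Hyp arrays, 1952 and 2907 on the Con NonHyp arrays, 2300 and 1743 on the Glucose Hyp arrays, and 2950 and 1347 on the Glucose NonHyp arrays. By the second it read 466 and 634, 1180 and 928, 1021 and 1359, and 1085 and 687. Both probe sets were lowest on the 2 Con Hyp arrays. Skeletal muscle markers, 20 of 20 with a probe set, summed to 126060 and 101570 on the Con Hyp arrays and to 167100 and 325060 on the Con NonHyp arrays, with Myh2 under the floor on all 4. Their part in the Bag3 levels was not tested.

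**Figure D5:**
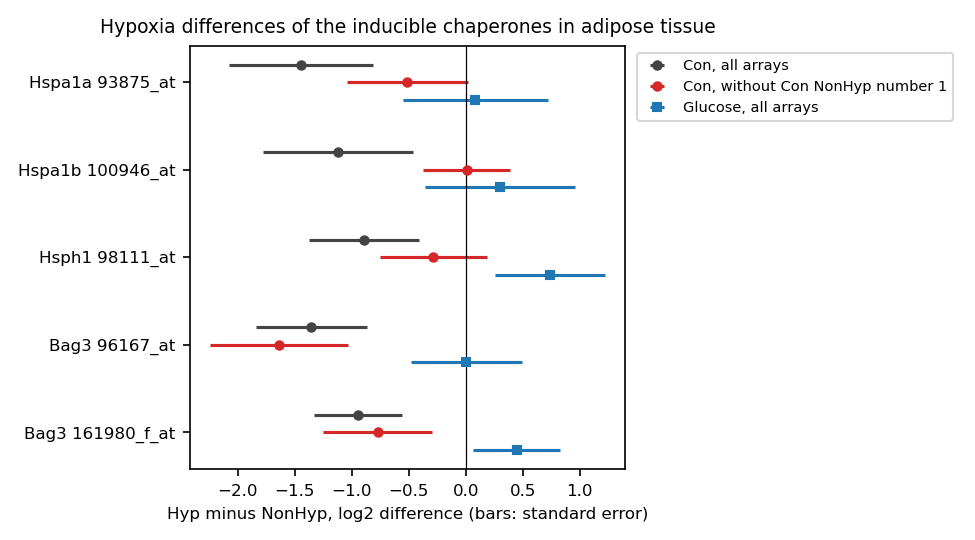
Log2 difference of Hyp from NonHyp in adipose tissue, with standard errors from limma, for the probe sets of Hspa1a, Hspa1b, Hsph1 and Bag3, within Con on all arrays, within Con without Con NonHyp number 1, and within Glucose. Leaving out that array moves Hspa1b from -1.12 to 0.0078, while Bag3 by its leading probe set moves from -1.35 to -1.64.

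Within Glucose, no member fell or rose past the test, and none of all tested did (0%). At an unadjusted p under 0.05 limma counted 0 of 9, against 2.13% of all tested. Hsph1 was 0.74 ± 0.48 higher under hypoxia (adjusted p = 1), and its arrays did not overlap, nor did those of Hspa1b (0.30 ± 0.66) and Cryab (0.31 ± 0.98), all 3 higher, as for 12% of all tested. Dnajb1 was lower without overlap (-0.44 ± 0.38), as for 12.4%. The median of the 9 was 0.09, against -0.0042 over all tested.

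The hypoxia effect was set against itself between Glucose and Con, which share no array. The difference of the effects was 1.63 ± 0.68 for Hsph1 and 1.39 ± 0.54 for Bag3 by its second probe set, with unadjusted p under 0.05 for these 2 of 9 (3.3% of all tested) and an adjusted p = 0.999 for both in limma. Without Con NonHyp number 1 these were 1.03 and 1.22. None of the 9 was called, nor any of all tested (0%). Averaged over Con and Glucose, hypoxia gave a median difference of -0.23 over the 9, with 0 called, 0 at an unadjusted p under 0.05 (1.48% of all tested) and an adjusted p = 0.9998 for each in limma. The nearest to a difference was Bag3 by its leading probe set, at -0.67 ± 0.34.

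Hspa8 and Hsp90aa1, the abundant cytosolic chaperones, overlapped between Hyp and NonHyp arrays within Con and within Glucose, as Dnajb1 did within Con. Hspa8 read 11912 and 9358 on the Con Hyp arrays, 9802 and 11078 on the Con NonHyp arrays, 7982 and 10207 on the Glucose Hyp arrays, and 7288 and 14783 on the Glucose NonHyp arrays, so that its lowest and highest value fell in the same group. Hsp90aa1 read 5972 and 4743, 7538 and 3883, 6377 and 5234, and 6174 and 7390. Dnajb1 read 482 and 519, 664 and 389, 578 and 475, and 609 and 827. For Hyp minus NonHyp on average, the intervals were -0.78 to 0.60 for Hspa8, -0.79 to 0.54 for Hsp90aa1 and -0.86 to 0.40 for Dnajb1.

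Between Glucose and Con, Cryab differed most among the members. By its leading probe set it read 1019 and 490 on the Con Hyp arrays, 1066 and 69.7 on the Con NonHyp arrays, 2107 and 2000 on the Glucose Hyp arrays, and 1764 and 1549 on the Glucose NonHyp arrays. All 4 Glucose arrays were higher than all 4 Con arrays, as for 11.4% of all tested. The log2 difference was 1.95 ± 0.69 (limma, adjusted p = 0.141) with Con NonHyp number 2 set to the floor. No member was called, against 7.58% of all tested, and Cryab was the 1 of 9 at an unadjusted p under 0.05 (24% of all tested). Without Con NonHyp number 1 the difference was 2.81, but Con NonHyp was then left with 1 array, the one set to the floor. Without that floored array, number 2, the difference was 1.09.

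Skeletal muscle markers summed to 101570 to 325060 on the Con arrays and to 21474 to 222520 on the Glucose arrays. Lymphocyte markers, 9 with a probe set, summed to 9122 to 13724 on the Con arrays and to 1073 to 2427 on the Glucose arrays, and the part of either list in the Cryab difference was not tested. The other 8 member probe sets overlapped between Glucose and Con, with differences from -0.53 ± 0.45 for Hspa1a to 0.42 ± 0.34 for Bag3 by its leading probe set.

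Of the wider lists, 2 probe sets were called between Glucose and Con, and none in a hypoxia comparison of adipose tissue. Dnajb4, a J-domain protein of the cytosol, read 97 to 280 on the Con arrays and 811 to 1315 on the Glucose arrays, a log2 difference of 2.45 ± 0.39 (limma, adjusted p = 0.0109) with Con NonHyp number 1 set to the floor. This call was lost under 3 of 16 alternatives (adjusted p up to 0.0947). Hspb2 by 1 of its probe sets was under the floor on the 4 Con arrays and 217 to 515 on the Glucose arrays, at least 3.49-fold higher (adjusted p = 0.0209). The Hspb2 call was lost under 7 of 14 alternatives, and the other Hspb2 probe set, at 0.995 ± 0.31, was not called (adjusted p = 0.11). Of 30 cytosolic probe sets tested 1 was thus called, and of 3 probe sets of other small heat shock proteins 1, where 7.58% of all tested were called. At an unadjusted p under 0.05 limma counted 9 of the 30 and 3 of the 3, against 24% of all tested. None was called of 11 of CCT, 17 of the endoplasmic reticulum, 6 of mitochondria and 13 of immediate early genes, where it counted 1, 4, 0 and 2 at that unadjusted p.

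Over the 8 adipose arrays, the genes outside the family that followed a member most closely were, as a description over arrays that share 1 extreme, Tgoln1 (Pearson r = 0.926), Egln1 (0.872) and Syt7 (0.864) for Hspa1a, and Elovl6 (0.889), Syt7 (0.878) and Acot1 (0.870) for Hspa1b. For Hsph1 they were Chordc1 (0.974), a cochaperone of HSP90, Lonp1 (0.889) and Slc25a1 (0.875). For Bag3 they were Nfic (0.968), Dda1 (0.951) and Bpifa2 (0.943). Between members, Hspa1a and Hspa1b had r = 0.931, on probe sets of near-identical genes, and Hsp90aa1 and Dnajb1 had 0.881.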

How the data were processed

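Each deposited table holds 1 intensity value for every probe set of its array, not log-transformed. As the values show, the trimmed mean was near 800 on 19 of the 20 arrays and 2670 on the Brain Hypoxia array. The summarisation of probes and the software are not given in the sources used here. Of 12488 probe sets, 66 controls were left out. The platform annotation gave 1 symbol to 10833 probe sets, several to 396 and none to 1193. Adipose values under the offset of 97.7, the 20th percentile of positive values, were set to it before log2 (6.61). In the panel the offset was added before log2 and quantile normalization. The adipose arrays have 17.5% to 21.2% of their values at 0 or negative and the panel has none, so the sets were processed apart and levels were not compared between them. Probe sets whose mean (adipose) or highest tissue mean (panel) lay above the 40th percentile were kept, 7453 in each fit.

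Comparisons were tested with limma 3.58.1 in R 4.3.3 (lmFit and eBayes, two-sided), with Benjamini-Hochberg adjustment over all probe sets tested and a threshold of 0.05, on 4 residual degrees of freedom in adipose tissue and 6 in the panel. The code was tested on simulated data. The genes, lists and tests were chosen with earlier results of these data known. Members were all named, and of each wider list at most 4 genes, those called by size of difference or else those of smallest p. The genes most like a member are the 3 with the highest Pearson correlation among those tested. Whether arrays came from separate animals is not stated, so that p-values measure only the spread between arrays, whose number limits the precision. Alternatives were other offsets, normalizations and filters, a block for the replicate number or title code, and leaving out arrays. The title code is the s2 or s4 in the title of an array, and the labels do not say what it means. The arrays of the panel were left out in turn by a choice made after seeing the data, except the Brain Hypoxia array.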

Additional observations from a re-analysis of the deposited data

Results flagged for a closer look

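Of 38 sets of 4 adipose arrays examined for 1 array far from the others, 4 had such an array, and chance flags about 1 in 20 sets. For Hspa1b the gap between Con NonHyp number 1 and the next array made up 0.916 of the whole range of the 4 Con arrays and 0.913 of that of the 4 NonHyp arrays. For Cryab by its second probe set, the gap of Glucose Hyp number 2 made up the whole range (1) among the 4 Glucose arrays and likewise among the 4 Hyp arrays (1), because the other arrays were at the floor. The sets share arrays, so these are not separate findings.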

How the results depend on the processing

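No member was called in the 5 adipose comparisons or in the 3 condition comparisons of the panel under the alternatives, with the exception of Cryab between Glucose and Con. There Cryab was at 2.81 without Con NonHyp replicate 1 and at 3.07 without both Con arrays numbered 1. Each of these fits left Con NonHyp with 1 array, whose Cryab value was set to the floor. With each panel array left out in turn, the members called numbered 3 to 6 in lung. The within-Con hypoxia difference of Hspa1b changed sign, to 0.0078 without Con NonHyp replicate 1 and 0.11 without both Con arrays numbered 1, and was as low as -2.24 without Con NonHyp replicate 2. The cause was not tested.

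The replicate block left 0 members called in each adipose comparison. The numbers were not shown to pair the arrays, since the correlation of the number 1 minus number 2 differences between groups ran from -0.14 to 0.42. The title code, s2 or s4, also splits each adipose group. Number 1 is s2 in Con NonHyp and s4 in Con Hyp, Glucose Hyp and Glucose NonHyp. Number and code therefore do not match across the groups, and pairing by the code was not examined. Over all probe sets, the count called for Glucose minus Con fell from 565 to between 240 and 362 on leaving out any 1 array but Glucose NonHyp number 2, with 39.2% to 52.9% of calls higher in place of 53.3%, and to 92 (29.3% higher) without both Con arrays numbered 1. With no filter on low values, the 4 hypoxia comparisons of adipose tissue gave 2 to 4 called probe sets in place of 0.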

Other observations

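Chordc1, a cochaperone of HSP90 whose gene is known as a heat shock target, has 2 probe sets, of which 1 correlated with Hsph1 at 0.974 over the 8 adipose arrays. It read 1582 and 1278 on the Con Hyp arrays, 2353 and 1681 on the Con NonHyp arrays, 2254 and 2071 on the Glucose Hyp arrays, and 1753 and 1524 on the Glucose NonHyp arrays, so that it too was highest on Con NonHyp number 1. The other probe set was highest on Glucose Hyp number 1 (1868) and read 1427 on Con NonHyp number 1. Chordc1 was singled out after its values were seen.

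Elovl6, the probe set furthest above the next array on Con NonHyp number 1, read 3916 there, against 438 on Con Hyp number 1 and at most 216 on the other 6. Its other probe set read 5554 on that array, 2345 on Con Hyp number 1 and 144 to 1440 on the others.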
